A study of Mus musculus with 64 samples.

Results

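The hippocampus of wild-type (WT) mice was sampled at postnatal weeks (PWK) 7, 14 and 28, with 4 RNA-seq libraries per age. These are the 12 libraries that the labels give as hippocampus, wild type and one of these ages, of 64 in the series, so the choice of libraries used no measured value. The series was built around a Cyfip2 knock-in allele (p.Arg87Cys), and profiled hippocampus and frontal cortex. All 12 libraries came from C57BL/6N animals without a mutant allele, raised as controls of the knock-in line, so the 3 groups differed by the label only in age. Mice were group housed with lights on for 12 h, and brains were taken in the afternoon, between 2 and 4 pm. Each age is a separate set of mice, and the labels give neither sex nor processing batch, so age and any batch that went with it cannot be told apart. Values are gene-level normalized counts as the authors deposited them, from bulk tissue, in which fewer cells of a type and less RNA per cell cannot be told apart.

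The hippocampus encodes episodic and spatial memory through a loop of dentate granule cells, CA3 and CA1 pyramidal neurons and a diverse set of inhibitory interneurons. It is also a site where new neurons are added in the adult mouse, and progenitor division and the expression of immature-neuron genes are known to decline as the animal matures. Over the same ages myelin is completed, glia take on adult and later aging states, and neurons and glia respond to glucocorticoids, to the time of day and to recent activity through transcripts that turn over quickly. Protein folding in the endoplasmic reticulum (ER) is kept in balance by chaperones whose genes are induced together as part of the unfolded protein response.

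Markers of the dissected region were present in every library. Prox1, the granule cell transcription factor, ranged from 3808 to 5441 normalized counts and Wfs1, which marks CA1, from 3376 to 5572. The summed level of the 8 hippocampal markers was 35960 to 41060 at PWK 7, 34360 to 40130 at PWK 14 and 32660 to 36420 at PWK 28, and none of the 8 was at 0 in any library. Of the 8, 1 passed at PWK 14 against PWK 7, as lower. Neurod6 and Rgs14 passed at PWK 28 against PWK 14 and 2 of the 8 at PWK 28 against PWK 7, all lower. Among all genes tested, the shares called lower in these pairs of ages were 1.96%, 5.6% and 8.61%. Whether the dissection or the cell composition had a part in the lower marker levels was not tested. Cyfip2 itself, the gene altered in the mutant mice of the series, ranged from 26732 to 35756, and its paralog Cyfip1 from 3788 to 4373. The Y-linked gene Ddx3y was detected in all 12 libraries, at 1139 to 1700.2. Library totals after normalization were 29865000 to 31827000, and the log2 profiles of libraries of one age correlated at 0.9787 to 0.988 across genes, so no library was a copy of another.

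Markers of choroid plexus, the secretory epithelium of the ventricles that lies against the hippocampus, varied widely between libraries. Ttr, its transthyretin transcript, was at 80928, 31323, 594 and 87362 at PWK 7, 1150.0, 16386, 94520.0 and 877 at PWK 14 and 48886, 33029.9, 112009.9 and 114193 at PWK 28. Its lowest values were in PWK 7 replicate 3, PWK 14 replicate 1 and PWK 14 replicate 4, and the 4 libraries of PWK 28 were all high. All 12 choroid plexus markers were detected in all libraries, with a summed level of 1887 to 105200 at PWK 7, 2360 to 112700 at PWK 14 and 39860 to 134200 at PWK 28, and none of the 12 passed in any pair of ages (limma, described below, with 9 of the 12 at an unadjusted p under 0.05 at PWK 28 against PWK 14 and 0 in the other pairs). The main counts over all genes are therefore given with this level as a covariate and without the 3 libraries of lowest level, which leaves 3 libraries at PWK 7 and 2 at PWK 14.

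**Figure D1:**
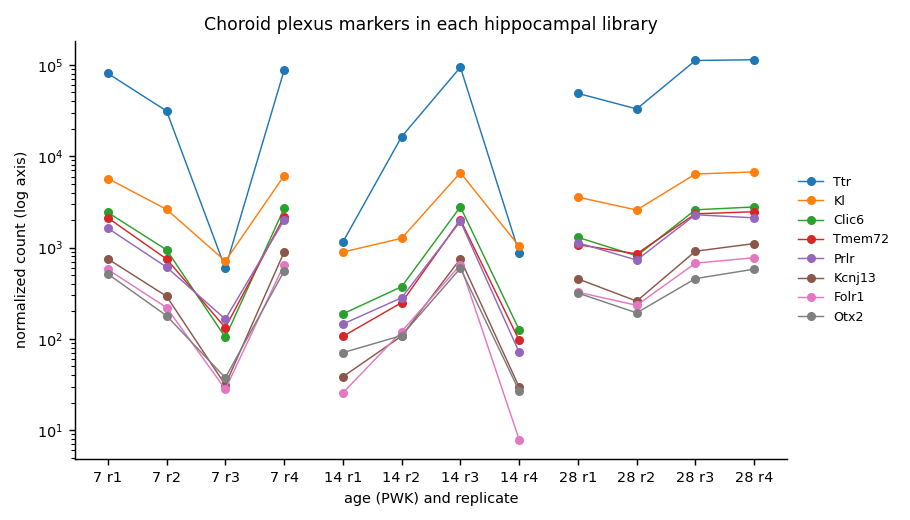
Normalized counts (log axis) of 8 choroid plexus markers in each of the 12 hippocampal libraries, ordered by age in postnatal weeks and replicate, with lines joining the libraries of one age only. The 8 genes rise and fall together, with low values in PWK 7 replicate 3 and in PWK 14 replicates 1 and 4, and high values in all 4 libraries of PWK 28.

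Most age differences were small, and more genes passed the test over the whole interval than at either step. Of 18402 genes tested with limma (trend on log2 of the value plus 1, Benjamini-Hochberg adjusted p under 0.05), 800 (4.35%) passed at PWK 14 against PWK 7, with 439 (2.39%) higher and 361 (1.96%) lower. At PWK 28 against PWK 14, 1718 (9.34%) passed, 688 (3.74%) higher and 1030 (5.6%) lower. Across the whole interval, PWK 28 against PWK 7, 2851 (15.5%) passed, 1267 (6.89%) higher and 1584 (8.61%) lower. The median absolute log2 change of the genes that passed was 0.32, 0.277 and 0.292 in these comparisons, and 56, 105 and 174 genes changed by at least 1 on the log2 scale. The first and second comparison share the 4 PWK 14 libraries, and each shares 4 libraries with the third.

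The counts of the single steps moved with the libraries used. Leaving out PWK 7 replicate 4, PWK 14 replicate 1 or PWK 14 replicate 2 lowered the first to 387, 474 or 430, and leaving out PWK 14 replicate 4, PWK 28 replicate 1 or PWK 28 replicate 4 lowered the second to 986, 958 or 912. With the choroid plexus level as a covariate, 565 genes passed at PWK 28 against PWK 14, 691 at PWK 14 against PWK 7 and 2390 at PWK 28 against PWK 7. Without the 3 libraries of lowest level the numbers were 343, 374 and 2387, so the second step did not give more calls than the first in these settings. The direction of the calls also moved with the scaling. At PWK 28 against PWK 14, 40.05% of the calls were higher with the deposited scaling, 55.69% when all libraries were scaled to an equal total, 51.42% after a correction for transcript GC content and length, 51.5% with the choroid plexus covariate and 50.44% without the 3 libraries. At PWK 28 against PWK 7, 44.44% were higher, against 57.11% with equal totals. GC content moved with the second step: the decile of genes with the lowest GC content (up to 41.55%) had a median log2 change of 0.0604 from PWK 14 to PWK 28, and the decile with the highest (from 58.25%) a median of -0.127, beside -0.0085 over all genes.

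ER chaperones rose mainly between PWK 7 and PWK 14, and a smaller number rose again by PWK 28. The share of all genes called higher was 2.39% at the first step, 3.74% at the second and 6.89% over the whole interval. In the list of 22 heat shock and unfolded protein response genes, 13 passed at PWK 14 against PWK 7, 5 at PWK 28 against PWK 14 and 15 at PWK 28 against PWK 7, all of them higher, and the median log2 change over the list was 0.342, 0.0998 and 0.355, beside -0.000768, -0.00846 and -0.00651 over all genes. Hspa5 encodes BiP, the main Hsp70 chaperone of the ER lumen, which holds the sensors of the unfolded protein response in check. Its normalized counts were 5401, 4590.4, 4623 and 4659 at PWK 7, 8045, 8356, 8081 and 6374 at PWK 14 and 8986, 9714, 10007 and 11740.4 at PWK 28. No library of one age overlapped those of the next, and the level rose 2.09-fold from PWK 7 to PWK 28 (log2 1.07, SE 0.092, adjusted p = 2.51e-05). The first step accounted for log2 0.67, SE 0.092, adjusted p = 0.0023, and the second for log2 0.39, SE 0.092, adjusted p = 0.018.

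Calr encodes calreticulin, a calcium-binding lectin that folds glycoproteins in the ER. The libraries gave 7684, 7399, 7580.3 and 7662 at PWK 7, 10452, 10350.1, 10234 and 9655 at PWK 14 and 10873, 11631, 11566 and 12158 at PWK 28. The ages again did not overlap, and the whole change was log2 0.61, SE 0.039, adjusted p = 2.18e-06. Hsp90b1, which encodes the ER member of the Hsp90 family, was at 7032, 6364, 6935 and 7223 at PWK 7, 8750.0, 8641, 8999 and 8093 at PWK 14 and 9862, 9826, 10068 and 11200.2 at PWK 28. These libraries also formed 3 separate ranges, with a change from PWK 7 to PWK 28 of log2 0.57, SE 0.052, adjusted p = 3.28e-05. Pdia6, a disulfide isomerase, averaged 2123 ± 81.6 at PWK 7, 2857 ± 227 at PWK 14 and 3217 ± 241 at PWK 28 (SD, n = 4), and Creld2, a secreted factor of the same response, 206 ± 21.1 at PWK 7, 312 ± 24.1 at PWK 14 and 355 ± 57.9 at PWK 28. For both genes the step from PWK 7 to PWK 14 passed (adjusted p = 0.0028 and 0.013) and the step to PWK 28 did not (adjusted p = 0.11 and 0.40).

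Of the cytosolic chaperones, Hspa8 rose at both steps, and the calls of Hspa1a and Hspa1b depended on the setting. Hspa8, the constitutive Hsp70 of the cytosol, averaged 41529 ± 577 at PWK 7, 48780.1 ± 839 at PWK 14 and 54184 ± 1883 at PWK 28, and each of its steps passed, with a total of log2 0.38, SE 0.036, adjusted p = 3.90e-05. The inducible Hsp70 genes Hspa1a and Hspa1b are near-identical copies whose reads cannot be assigned with certainty. Hspa1a averaged 359.5 ± 72.7 at PWK 7, 465 ± 30.7 at PWK 14 and 457 ± 58.8 at PWK 28 and missed the threshold over the whole interval (adjusted p = 0.07). It passed by limma, as higher, with equal totals (adjusted p = 0.04801), sample quality weights (0.03203) and the GC content and length correction (0.02773). The same held with the replicate number as a block (0.03131) and without PWK 7 replicate 2 (0.01042). Hspa1b passed only at PWK 14 against PWK 7 (log2 0.54, SE 0.14, adjusted p = 0.039), and that call was lost without any one of PWK 7 replicates 1, 3 and 4, PWK 14 replicates 1, 2 and 4 and PWK 28 replicates 1 and 3 (adjusted p from 0.05056 to 0.1061). With the choroid plexus covariate 11, 0 and 15 genes of the list passed in the 3 comparisons by limma, and without the 3 libraries of lowest level 9, 0 and 14, so the second step alone gave no call in these settings.

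**Figure D2:**
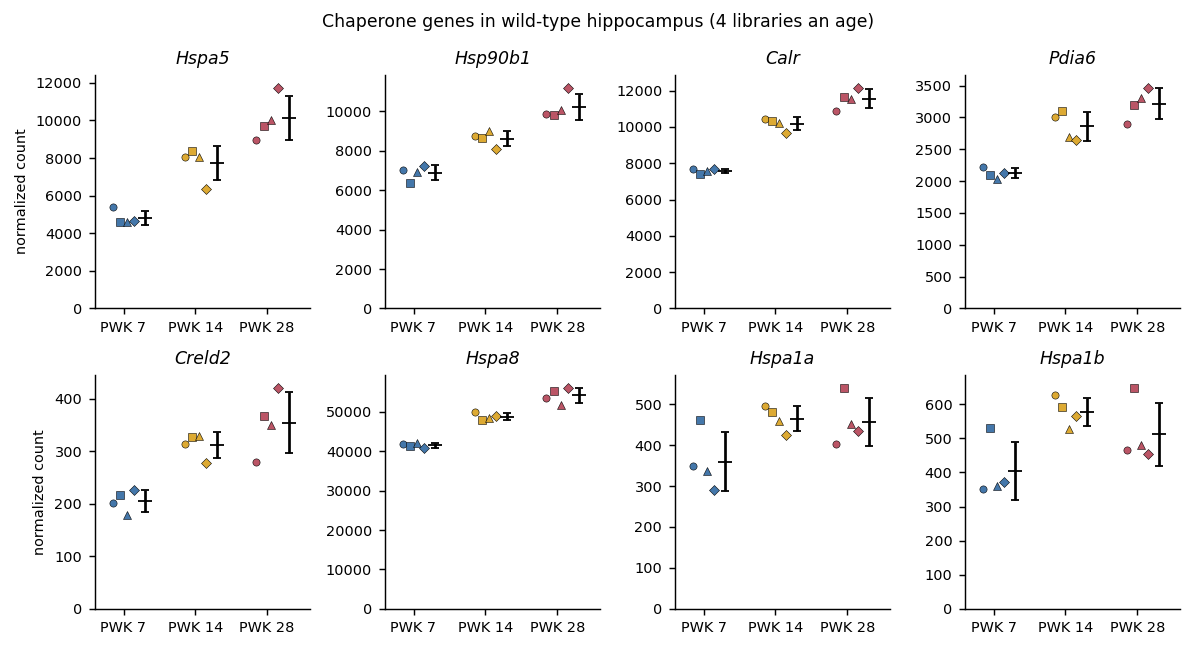
Normalized counts of 8 chaperone genes in each library at PWK 7, 14 and 28, with circles, squares, triangles and diamonds for replicates 1 to 4 and the mean with SD (n = 4) in black, on axes that start at 0. Hspa5, Hsp90b1, Calr and Hspa8 form 3 separate ranges in the order of age, whereas the ranges of Hspa1a and Hspa1b overlap between ages.

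The ER stress response element, to which the transcription factors of the unfolded protein response bind, was searched for in RefSeq promoter windows of the GRCm38.p6 build, after the values were seen. The letters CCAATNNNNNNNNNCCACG, read on both strands of 300-base windows from 250 bases before to 50 after each start, were present in 39 of 32851 windows (0.119%). Of the 22 list members, 19 had a window and 5 of them held the element. The stretches before the start are shown for these 5 because their genes are among those that rose, with the fixed letters of each match in capitals, in the direction of the gene.
Hspa5: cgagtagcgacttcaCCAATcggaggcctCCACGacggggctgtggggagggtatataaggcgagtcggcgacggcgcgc
Hsp90b1: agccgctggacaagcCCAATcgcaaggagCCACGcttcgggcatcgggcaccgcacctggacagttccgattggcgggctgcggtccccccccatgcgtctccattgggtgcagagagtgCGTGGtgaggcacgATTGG
Calr: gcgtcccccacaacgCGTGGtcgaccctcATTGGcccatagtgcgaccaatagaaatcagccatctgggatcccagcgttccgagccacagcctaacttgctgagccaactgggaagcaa
Pdia6: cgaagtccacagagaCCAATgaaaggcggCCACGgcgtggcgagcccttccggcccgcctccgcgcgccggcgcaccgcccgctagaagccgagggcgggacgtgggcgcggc
Creld2: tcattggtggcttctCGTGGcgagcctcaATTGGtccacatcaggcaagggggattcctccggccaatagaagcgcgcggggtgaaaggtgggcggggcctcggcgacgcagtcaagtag
These lie at chr2:34772010-34772089, + strand, chr10:86705533-86705671, - strand, chr8:84846989-84847108, - strand, chr12:17266476-17266588, + strand and chr15:88819505-88819624, + strand. Hsp90b1 held 2 matches, 1 on each strand, and the others 1 each. Of 21 genes in the table with the element in a window, 7 were higher and 1 lower at PWK 28 against PWK 7, and these 7 include the 5 genes above. Over all genes tested 6.89% were higher and 8.61% lower. The element was searched for after the rise of these 5 genes was seen, so the count is no separate evidence. A match is a description of letters and not of a bound site.

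Genes that moved one way over the 3 ages were those that passed at PWK 28 against PWK 7 with a PWK 14 mean between the ends. There were 2146 of them (11.7% of genes tested), 947 rising (5.15%) and 1199 falling (6.52%), and for the other 705 of the 2851 genes the PWK 14 mean lay outside the ends. The number was 1841 with the choroid plexus covariate and 1821 without the 3 libraries of lowest level. For 1409 of the 2146 neither single step passed, 210 passed only at the first step, 486 only at the second and 41 (0.223%) at both. For 20 of the 2146 a difference in size between the steps passed, 13 with the larger change after PWK 14 and 7 with the larger change before. This does not show equal steps in the other genes, because the choice of a PWK 14 mean between the ends limits the contrast. A stricter count required the 4 libraries of each age to lie apart from those of the next in order, which held for 74 rising genes (0.402%) and 64 falling genes (0.348%) of all tested. The share rising among the 2146 was 44.13% with the deposited scaling and 57.11% with equal totals.

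Among the 24 rising genes that passed at both steps, Rtp1, a chaperone for odorant receptors, changed most. It was at 16.6, 24.8, 21.7 and 16.4 at PWK 7, 40.6, 34.4, 43.8 and 42.4 at PWK 14 and 91, 67.9, 63.5 and 74.8 at PWK 28, 3 separate ranges at a low level (log2 1.86 for PWK 28 against PWK 7, SE 0.19, adjusted p = 6.80e-05). C4b, the complement component that is a common mark of aging glia, was at 1214, 1122, 1273 and 1187 at PWK 7, 1904, 1642, 1629 and 1529 at PWK 14 and 2214, 2059, 2217 and 2316 at PWK 28. The change of C4b was close to even between the steps, 0.48 and 0.40 on the log2 scale, and log2 0.88, SE 0.065, adjusted p = 7.14e-06 over the whole interval. Pdk4, a mitochondrial kinase that turns metabolism away from glucose, averaged 205 ± 16 at PWK 7, 303 ± 31.8 at PWK 14 and 416 ± 44.9 at PWK 28 (log2 1.01), and Il33, an alarmin made by mature oligodendrocytes and astrocytes, averaged 1054 ± 116 at PWK 7, 1372 ± 135 at PWK 14 and 1714 ± 106 at PWK 28 (log2 0.71).

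Among the 17 falling genes that passed at both steps, Pla2g4e changed most. It encodes a phospholipase A2 family enzyme that makes N-acyl phosphatidylethanolamines, the precursors of anandamide. The libraries gave 372, 400.4, 452 and 399 at PWK 7, 205, 213, 202 and 284 at PWK 14 and 148, 142, 137 and 136 at PWK 28, without overlap between neighbouring ages, and the level fell by 1.52 on the log2 scale (log2 -1.52, SE 0.11, adjusted p = 6.72e-06). Wnt9a, a secreted Wnt ligand, was at 304, 399, 300.4 and 377 at PWK 7, 175, 207, 188 and 236 at PWK 14 and 145, 113, 128 and 124 at PWK 28. It also formed 3 separate ranges (log2 -1.42, SE 0.13, adjusted p = 2.74e-05). Marcksl1 and Dpysl3, growth cone proteins of young neurons, and Rgs5, a pericyte marker, were in the same group and are given below.

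By size of the whole change, the rising one-way genes whose PWK 28 libraries all lay above those of PWK 7 were led by Gm14434, Fos, Plin4, Egr2, Rtp1, H2-Aa, Gm14308 and Noxred1. Gm14434 was at 0, 0, 0 and 133 at PWK 7, 199, 181, 0 and 0 at PWK 14 and 280.0, 192, 162 and 219.5 at PWK 28. It is listed at 0 in 5 of the 8 younger libraries and its call was lost whenever a PWK 7 or PWK 28 library other than PWK 7 replicate 4 was left out (adjusted p from 0.08202 to 0.112). Gm14308, a further predicted gene of the same stretch of chromosome 2, averaged 167 ± 44.8 at PWK 7, 219.8 ± 126 at PWK 14 and 466 ± 86.4 at PWK 28. Noxred1 averaged 19.3 ± 4.07 at PWK 7, 44.2 ± 8.06 at PWK 14 and 54.2 ± 8.84 at PWK 28, and most of its change came at the first step (log2 1.16). Fos, Plin4, Egr2 and H2-Aa are described with their groups.

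The falling one-way genes were led by Gm14440, Gm20458, Pla2g4e, Wnt9a, Igfbpl1, Malsu1, Draxin and Cstad. Gm14440, also a predicted gene of distal chromosome 2, was at 129.5, 608, 452 and 310.3 at PWK 7, listed at 0 in 2 libraries of PWK 14 and listed at 0 in all 4 of PWK 28. Reads of Gm14434, Gm14308 and Gm14440, which lie at chr2:176473278-176486783, chr2:176613364-176636344 and chr2:175275125-175286805, may be shared with near-identical copies, so their values are uncertain. Malsu1, a factor of mitochondrial ribosome assembly, was at 289, 388, 364 and 389 at PWK 7, 170.2, 168, 226 and 199.7 at PWK 14 and 154, 150.0, 116 and 182 at PWK 28. Most of the drop was made by PWK 14 (log2 -0.90), and it reached -1.25 by PWK 28 (adjusted p = 1.73e-04). Cstad averaged 53.5 ± 14.2 at PWK 7, 32 ± 6.62 at PWK 14 and 23.2 ± 5.19 at PWK 28 and Gm20458 75.4 ± 20.6 at PWK 7, 30.4 ± 27.2 at PWK 14 and 6.1 ± 5.5 at PWK 28, both at low level, and the call of Gm20458 was lost without PWK 7 replicate 2, PWK 28 replicate 2 or PWK 28 replicate 3 (adjusted p from 0.0532 to 0.07081).

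Between PWK 7 and PWK 14 most of the leading genes were of low level. Among genes whose libraries did not overlap between the 2 ages, which held for 5.54% of genes upward and 5.29% downward, the rising ones were led by Lif, Pln, Gm4070, Scd3, Rnf207, Scel, Edn1 and Dnase1l2. Lif, the leukemia inhibitory factor, was at 31, 10.8, 6.09 and 14.5 at PWK 7 and 102, 42.1, 67.3 and 61.1 at PWK 14 (log2 2.21, SE 0.45, adjusted p = 0.015). It was back at 18.2 to 57 at PWK 28. Scd3, a stearoyl-CoA desaturase, was at 37.9, 40.9, 41.2 and 41.3 at PWK 7 and 87.5, 88.8, 91.5 and 67.2 at PWK 14 (log2 1.03, SE 0.14, adjusted p = 0.0024). Edn1, the vasoconstrictor endothelin 1, was at 33.3, 45.1, 47.6 and 47.8 at PWK 7 and 77.3, 73.6, 92.7 and 95 at PWK 14 and returned to 38.9 to 52.5 at PWK 28, so its 2 steps were opposite (log2 0.95 and -0.92). Pln, which encodes phospholamban, rose by 1.79 on the log2 scale, Gm4070 by 1.13, Rnf207 by 0.99, Scel by 0.97 and Dnase1l2 by 0.94.

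The falling genes of the first step were led by Kcng3, Sgk2, Mycbp, Gucy1a2, Epha6, Malsu1, Pdlim2 and Slc52a3. Kcng3, a silent subunit of voltage-gated potassium channels, was at 129, 127, 158 and 149.9 at PWK 7 and 53, 40.9, 101 and 35.8 at PWK 14 (log2 -1.39, SE 0.25, adjusted p = 0.0079) and at 97.1 to 128 at PWK 28. Epha6, an ephrin receptor of the axon guidance family, was at 2031, 2274, 1941 and 2214 at PWK 7 and 1233, 949.5, 1241 and 1074 at PWK 14 (log2 -0.92, SE 0.11, adjusted p = 0.0019), the most highly expressed gene of this group. Pdlim2, a cytoskeletal PDZ-LIM protein, had the smallest adjusted p of the 8 and was at 403, 395, 421 and 461 at PWK 7 and 234, 232, 243 and 204 at PWK 14 (log2 -0.88, SE 0.078, adjusted p = 1.63e-04). Gucy1a2, a subunit of the nitric oxide receptor, fell by 0.94 on the log2 scale, the kinase gene Sgk2 by 0.96, Mycbp by 0.95 and the riboflavin transporter Slc52a3 by 0.86. The call of Mycbp was lost without PWK 7 replicate 1, PWK 7 replicate 3, PWK 14 replicate 2 or PWK 14 replicate 4 (adjusted p from 0.05866 to 0.09215), and that of Slc52a3 without PWK 7 replicate 4 or PWK 14 replicate 2 (0.06064 and 0.05328). Without the 3 libraries of lowest choroid plexus level, Scd3, Rnf207, Epha6, Malsu1 and Pdlim2 still passed among the 16 genes, and the other 11 kept their direction with adjusted p from 0.06204 to 0.1613.

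Between PWK 14 and PWK 28, where libraries did not overlap for 6.58% of genes upward and 9.5% downward, the rising genes were led by Gm21985, Nutf2, Plin4, Egr2, mt-Co2, Sycp2, Gm14308 and Sgk1. Nutf2, a nuclear import factor, was at 18.3, 87.6, 84.8 and 76.3 at PWK 14 and 165, 178, 134 and 182 at PWK 28, with PWK 7 at 117 to 159 (log2 1.501, SE 0.37, adjusted p = 0.024). Gm21985 was listed at 0 in 2 of the PWK 14 libraries and averaged 87.2 ± 21.8 at PWK 28. Sycp2 averaged 29 ± 3.06 and 75.1 ± 26.8. The mitochondrially encoded mt-Co2, a subunit of cytochrome oxidase, was at 86456, 106252, 107138 and 47817 at PWK 7, 37817, 34622, 48779 and 58229 at PWK 14 and 105794, 102725, 134422 and 106658 at PWK 28 (log2 1.35, SE 0.22, adjusted p = 0.0033). Its PWK 14 libraries lay below all of PWK 28 and below all of PWK 7 except replicate 4. The call of Nutf2 was lost without PWK 28 replicate 1, 2 or 4 (adjusted p from 0.05395 to 0.06581), and that of Gm21985 without PWK 28 replicate 1 or 4 (0.05345 and 0.0506).

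The falling genes of the second step were led by Gkn3, Sox7, Ano1, Cldn5, Hes5, Edn1, Micall2 and Foxq1, of which Gkn3, Sox7, Cldn5, Edn1 and Foxq1 are known from brain endothelium. Gkn3, a marker of arterial endothelium in brain, was at 64.6, 37.3, 44.6 and 35.9 at PWK 7, 72.6, 86.3, 58.6 and 77.6 at PWK 14 and 29.6, 26.3, 17.3 and 17.3 at PWK 28 (log2 -1.69 for PWK 28 against PWK 14, SE 0.24, adjusted p = 0.0013). Ano1, a calcium-activated chloride channel of contractile mural cells, averaged 89 ± 7.43 at PWK 7, 148 ± 28.1 at PWK 14 and 68.2 ± 7.23 at PWK 28, high at PWK 14 only. Hes5, a target of Notch in astrocytes and neural stem cells, was at 182, 189, 163 and 138 at PWK 7, 180.2, 218, 185 and 163 at PWK 14 and 109, 93.7, 82.7 and 92.6 at PWK 28, with no overlap between PWK 28 and either younger age (log2 -0.97 for PWK 28 against PWK 14, SE 0.13, adjusted p = 9.69e-04). Sox7 averaged 50.2 ± 13.1 at PWK 7, 61.6 ± 15.9 at PWK 14 and 27.3 ± 4.42 at PWK 28, Foxq1 99.1 ± 22.4 at PWK 7, 106 ± 16.4 at PWK 14 and 57 ± 8.77 at PWK 28 and Micall2 61.4 ± 6.02 at PWK 7, 57.8 ± 4.89 at PWK 14 and 31.1 ± 8.71 at PWK 28. Without the 3 libraries of lowest choroid plexus level, the calls of Gm21985, Sycp2, Sox7, Micall2 and Foxq1 were lost, with adjusted p from 0.06738 to 0.157, and each kept its direction.

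**Figure D3:**
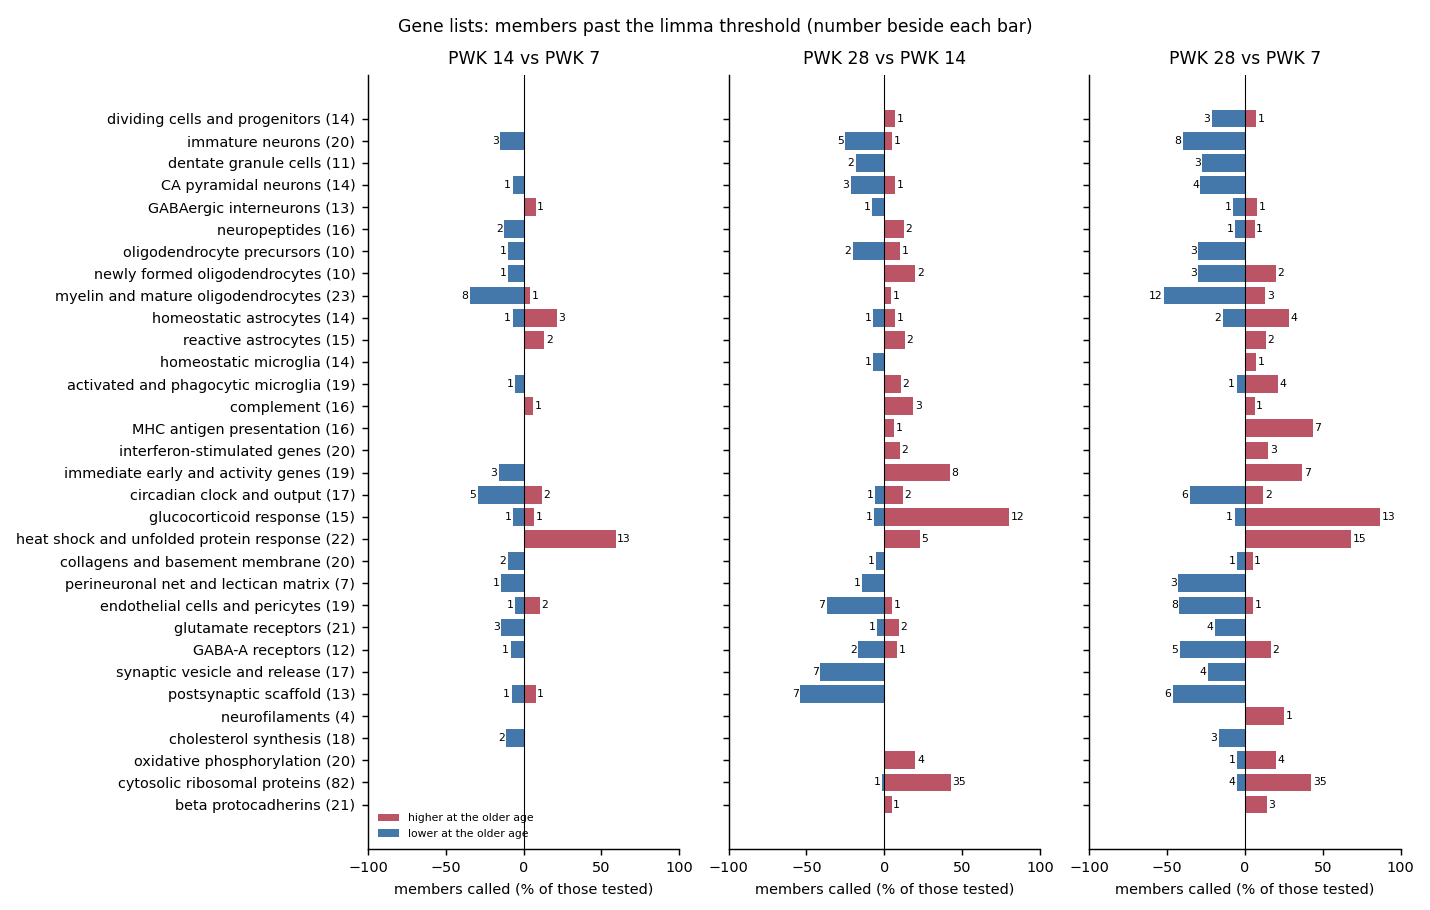
Members of 32 gene lists that passed the limma threshold at PWK 14 against PWK 7, PWK 28 against PWK 14 and PWK 28 against PWK 7, as percent of the members tested (number tested in brackets, number called beside each bar), with red bars to the right for higher and blue bars to the left for lower at the older age. The heat shock and unfolded protein response list is higher at both steps (13 and 5 of 22), the glucocorticoid list is higher mainly at the second (12 of 15), and myelin genes are lower mainly at the first (8 of 23).

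Targets of the glucocorticoid receptor rose between PWK 14 and PWK 28, a step with 3.74% of all genes higher and 5.6% lower. For the first step these shares were 2.39% and 1.96%, and for the whole interval 6.89% and 8.61%. Of 15 genes in this list, 1 rose and 1 fell at the first step, 12 rose and 1 fell at the second, and 13 rose and 1 fell over the whole interval, with median log2 changes of 0.0233, 0.454 and 0.482. Sgk1, the serum and glucocorticoid-regulated kinase, was at 2639.6, 2343, 2135 and 2484 at PWK 7, 2059.8, 1836, 3098 and 1507 at PWK 14 and 4485, 5106, 5104 and 5013 at PWK 28. All 4 libraries of PWK 28 were above all younger ones, and the younger ages overlapped (log2 1.26 for PWK 28 against PWK 14, SE 0.16, adjusted p = 6.89e-04). Plin4, a lipid droplet coat protein, was at 282, 389, 402 and 284 at PWK 7, 392, 417, 874 and 465 at PWK 14 and 1378, 1360.1, 1691 and 1086 at PWK 28, and rose 4.06-fold from PWK 7 to PWK 28 (log2 2.02 for PWK 28 against PWK 7, SE 0.22, adjusted p = 1.12e-04). Tsc22d3, which encodes the glucocorticoid-induced leucine zipper protein GILZ, was at 1618, 1561, 1861 and 1686 at PWK 7, 1741, 1770.0, 1981 and 1385 at PWK 14 and 3115, 3013, 3530.0 and 3010.0 at PWK 28, flat and then higher (log2 0.89 for PWK 28 against PWK 14, SE 0.093, adjusted p = 2.26e-04).

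The metallothionein Mt2 had a different course, 2221, 2500.0, 2292 and 2204 at PWK 7, 1780.4, 1959.5, 1873 and 1618 at PWK 14 and 2825, 2999, 3347 and 2919.5 at PWK 28, falling at the first step (log2 -0.35) and rising at the second (log2 0.74, SE 0.067, adjusted p = 6.19e-05). Fkbp5, the co-chaperone that limits the receptor, averaged 1898 ± 189 at PWK 7, 1816 ± 79.8 at PWK 14 and 2405 ± 224 at PWK 28 and passed at the second step (log2 0.40, adjusted p = 0.0057). Nr3c1, the receptor gene itself, averaged 2634 ± 159 at PWK 7, 2723 ± 177 at PWK 14 and 2431 ± 117 at PWK 28 and did not pass (adjusted p = 0.19). Nr3c2, which encodes the mineralocorticoid receptor and was the 1 gene that fell, averaged 6633 ± 707 at PWK 7, 5803 ± 482 at PWK 14 and 4628 ± 361 at PWK 28 (log2 -0.52, adjusted p = 0.0012). With the choroid plexus covariate 9 of the 15 rose at the second step, as did 9 without the 3 libraries of lowest level, and 13 rose over the whole interval in both settings.

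The full palindrome of the glucocorticoid response element, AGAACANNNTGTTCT, was searched on both strands after the values were seen. It was in 3 of 32851 promoter windows (0.00913%), and 1 of these windows belonged to Sgk1, of 13 list members with a window. The stretch of the Sgk1 window at chr10:21993686-21993745, + strand of GRCm38.p6 is shown with the match in capitals because Sgk1 is the list member that held it and rose at the second step.
Sgk1: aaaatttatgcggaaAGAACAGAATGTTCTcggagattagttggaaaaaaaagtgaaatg
Sgk1 has several starts in RefSeq, and the data do not say which was used.

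Immediate early genes, transcribed within minutes of neuronal activity, were higher at PWK 28 and variable among the younger mice. Among all genes 1.96% were lower at the first step and 3.74% higher at the second. The share higher over the whole interval was 6.89%. Of 19 genes, 3 fell at the first step, 8 rose at the second and 7 rose over the whole interval, with median log2 changes of 0.0633, 0.374 and 0.452. Fos was at 72.7, 71.4, 179 and 311 at PWK 7, 111, 222, 489 and 316 at PWK 14 and 592, 612, 558 and 732 at PWK 28. The 4 libraries of PWK 28 lay above all others, whereas PWK 7 and PWK 14 each spanned over 4-fold and overlapped (log2 2.24 for PWK 28 against PWK 7, SE 0.46, adjusted p = 0.0056). Fosb was at 137, 164, 179.6 and 244 at PWK 7, 149, 176, 274 and 205 at PWK 14 and 504, 443, 449 and 479 at PWK 28 (log2 1.396 for PWK 28 against PWK 7, SE 0.18, adjusted p = 3.49e-04). Egr2 was at 34.2, 39.2, 34.4 and 53.8 at PWK 7, 28.6, 74.3, 87.8 and 62.8 at PWK 14 and 155, 176, 122 and 174 at PWK 28 (log2 1.94 for PWK 28 against PWK 7, SE 0.29, adjusted p = 7.65e-04).

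Arc, which encodes a synaptic cytoskeletal protein needed for lasting plasticity, averaged 2514 ± 438 at PWK 7, 3532 ± 1131 at PWK 14 and 5322 ± 822 at PWK 28 (log2 1.08, adjusted p = 0.0024), and Egr3 averaged 2776 ± 89.9 at PWK 7, 3254 ± 342 at PWK 14 and 3816 ± 281 at PWK 28 (log2 0.46). Fosl2 averaged 1382 ± 183 at PWK 7, 1407 ± 106 at PWK 14 and 2007 ± 32.5 at PWK 28, a step made after PWK 14 (log2 0.52). The 3 genes that fell at the first step were Bdnf, the growth factor, and the late-response genes Nptx2 and Ptgs2, which encode neuronal pentraxin 2 and cyclooxygenase 2. Nptx2 was at 652, 863, 679 and 696 at PWK 7, 468, 477, 434 and 512 at PWK 14 and 673, 679.9, 642 and 777 at PWK 28, a dip at PWK 14 with no overlap with either side (log2 -0.58, SE 0.078, adjusted p = 0.0026 for PWK 14 against the mean of the other ages). When all 64 libraries of the series shared one estimate of the spread, none of the 19 passed by limma at PWK 28 against PWK 14 or against PWK 7, with adjusted p of 0.05762 for Fos, 0.08697 for Fosb and 0.1021 for Egr2 in the latter. With the choroid plexus covariate 3 rose at the second step and 7 over the whole interval.

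Genes of the circadian clock and its output differed mainly at the first step, where 2.39% of all genes were higher and 1.96% lower. At the second step these shares were 3.74% and 5.6%, and over the whole interval 6.89% and 8.61%. Of 17 genes, 2 rose and 5 fell at PWK 14 against PWK 7, 2 rose and 1 fell at PWK 28 against PWK 14 and 2 rose and 6 fell over the whole interval, and the median log2 change over the whole interval was -0.00633. Dbp, a clock output transcription factor that cycles strongly, was at 2213, 2097, 2565 and 2475 at PWK 7, 1436, 1497, 1409.8 and 1535 at PWK 14 and 1352, 1348, 1419.9 and 1317 at PWK 28. The PWK 7 libraries were separate from both older ages (log2 -0.67 for PWK 14 against PWK 7, SE 0.06, adjusted p = 1.63e-04), which overlapped with each other. Ciart, a repressor of the clock, was at 390.3, 477, 488 and 442 at PWK 7, 246, 281, 265 and 207 at PWK 14 and 296, 301, 342 and 324 at PWK 28 (log2 -0.85 for PWK 14 against PWK 7, SE 0.10, adjusted p = 0.0019), lowest at PWK 14. Cirbp, the cold-inducible RNA-binding protein, averaged 1809.9 ± 48.9 at PWK 7, 1375 ± 58.6 at PWK 14 and 1366 ± 100.5 at PWK 28 (log2 -0.40 for PWK 14 against PWK 7, SE 0.054, adjusted p = 0.0023). Cry1, a core repressor, moved in the opposite direction to Ciart, with 348, 323, 349 and 331 at PWK 7, 460.5, 444, 478 and 449.8 at PWK 14 and 327, 316, 356 and 337 at PWK 28 (log2 0.45, SE 0.055, adjusted p = 0.0016 for PWK 14 against the other ages).

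Myelin genes fell between PWK 7 and PWK 14 and gave few calls after PWK 14. The shares of all genes were 2.39% higher and 1.96% lower at the first step, and 3.74% and 5.6% at the second. For the whole interval they were 6.89% and 8.61%. Of 23 genes of myelin and mature oligodendrocytes, 1 rose and 8 fell at the first step, 1 rose and 0 fell at the second and 3 rose and 12 fell over the whole interval, with median log2 changes of -0.325, 0.0465 and -0.36. Opalin, a membrane protein of myelinating oligodendrocytes, was at 712, 633, 759 and 828 at PWK 7, 499.8, 416, 436 and 424 at PWK 14 and 396, 401, 273 and 344 at PWK 28, with 3 separate ranges (log2 -1.06 for PWK 28 against PWK 7, SE 0.12, adjusted p = 1.25e-04). Mog, on the outer face of myelin, was at 1990.1, 1448, 2005 and 2019 at PWK 7, 1405, 1098, 1162 and 1190.2 at PWK 14 and 1079.9, 1240.1, 1021 and 1095 at PWK 28. PWK 7 replicate 2 was lower than its 3 companions and still above all older libraries (log2 -0.74 for PWK 28 against PWK 7, SE 0.11, adjusted p = 6.50e-04). Cnp, a myelin phosphodiesterase, averaged 10528 ± 1022 at PWK 7, 7177 ± 648 at PWK 14 and 7192 ± 630.3 at PWK 28 (log2 -0.55 for PWK 14 against PWK 7, SE 0.08, adjusted p = 0.0025).

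Mbp, myelin basic protein, averaged 86945 ± 8825 at PWK 7, 70367 ± 5756 at PWK 14 and 66196 ± 4964 at PWK 28 (log2 -0.39 for PWK 28 against PWK 7, SE 0.079, adjusted p = 0.005). With one spread over all 64 libraries no member passed at PWK 14 against PWK 7 and 2 rose and 5 fell at PWK 28 against PWK 7, with adjusted p = 0.1863 for Mog and 0.2963 for Mbp. Il33, described above, was one of the 3 members that rose. In this comparison 6.89% of all genes were higher and 8.61% lower. Of 10 genes of newly formed oligodendrocytes 2 rose and 3 fell at PWK 28 against PWK 7, Enpp6 among the latter (427 ± 58.6 at PWK 7, 296 ± 31.9 at PWK 14 and 269 ± 27.8 at PWK 28, log2 -0.66), and of 10 precursor genes 3 fell and 0 rose. Of the newly formed oligodendrocyte genes 1 rose and 1 fell with the choroid plexus covariate, and the call of Enpp6 was lost with one spread over all 64 libraries (adjusted p = 0.05695).

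Genes of immature neurons declined. All genes gave 1.96% lower at the first step, 5.6% at the second and 8.61% over the whole interval. Of 20, 0 rose and 3 fell at the first step, 1 rose and 5 fell at the second and 0 rose and 8 fell over the whole interval, with a median log2 change of -0.176. Dcx, doublecortin, the microtubule protein of migrating neuroblasts, was at 1067, 1006, 1384 and 1154 at PWK 7, 861, 817, 937 and 723 at PWK 14 and 866, 717, 745 and 782 at PWK 28. The PWK 7 libraries were separate from both older ages (log2 -0.56 for PWK 28 against PWK 7, SE 0.10, adjusted p = 0.0025). Marcksl1 was at 2488, 2541, 2478 and 2461 at PWK 7, 2045, 1978, 1769 and 2047 at PWK 14 and 1739, 1609, 1526 and 1587 at PWK 28, 3 separate ranges with steps of -0.35 and -0.28. Igfbpl1, a marker of neuroblasts in the subgranular zone, was at 117, 147, 80.7 and 138 at PWK 7, 114, 101, 121 and 46.2 at PWK 14 and 59.8, 43.5, 19.6 and 73.4 at PWK 28 (log2 -1.395 for PWK 28 against PWK 7, SE 0.38, adjusted p = 0.025), a call that was lost without PWK 7 replicate 1, 2 or 4 or PWK 28 replicate 2 or 3 (adjusted p from 0.05114 to 0.06361), and Draxin, a guidance molecule, averaged 60.5 ± 6.79 at PWK 7, 38.2 ± 12.9 at PWK 14 and 25.9 ± 1.59 at PWK 28 (log2 -1.19). Dpysl3 averaged 2141 ± 169 at PWK 7, 1816 ± 79.6 at PWK 14 and 1594 ± 41.2 at PWK 28, also with both steps past the threshold. Sox11, a transcription factor of immature neurons, averaged 554 ± 15.3 at PWK 7, 579.9 ± 40.8 at PWK 14 and 558 ± 52.2 at PWK 28 and did not pass (adjusted p = 0.97). With the choroid plexus covariate 1 of the 20 fell at the second step, and without the 3 libraries of lowest level none did (limma).

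Of the proliferation genes, Mki67 and Eomes were low at all ages. The 14 genes of the list summed to 2402 to 2600 at PWK 7 and 2248 to 2370 at PWK 28. Of 14 genes of dividing cells and progenitors, none passed at the first step (limma, with 3 at an unadjusted p under 0.05), 1 rose at the second and 1 rose and 3 fell over the whole interval. Over all genes 6.89% were higher and 8.61% lower in that comparison. The members called in any pair of ages were Pcna, Mki67, Mcm6 and Eomes. Mki67 and Eomes fell, so the member that rose was Pcna or Mcm6. Mki67, present in all cycling cells, was at 95.3, 72.9, 63.7 and 88.5 at PWK 7, 56.1, 55.9, 64.5 and 66.9 at PWK 14 and 48.1, 54.2, 37.8 and 48.2 at PWK 28 (log2 -0.75 for PWK 28 against PWK 7, SE 0.17, adjusted p = 0.0087). Eomes, the transcription factor of intermediate progenitors, was at 44.2, 33.6, 30.3 and 21 at PWK 7, 62.2, 21.2, 24.6 and 17 at PWK 14 and 16.8, 12.3, 4.82 and 15.5 at PWK 28 (log2 -1.39 for PWK 28 against PWK 7, SE 0.42, adjusted p = 0.04), a call lost without any one of PWK 7 replicates 1 to 3 and PWK 28 replicates 2 to 4 (adjusted p from 0.05378 to 0.1056). With one spread over all 64 libraries, neither passed (adjusted p = 0.2205 and 0.4212).

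Among genes of mature neurons more fell than rose at PWK 28 against PWK 7, where 6.89% of all genes were higher and 8.61% lower. Of 11 dentate granule cell genes 3 fell, of 14 CA pyramidal genes 4 fell and of 13 interneuron genes 1 rose and 1 fell. Without the 3 libraries of lowest choroid plexus level 7 of the dentate and 6 of the CA genes fell, and with the covariate 2 and 4. Gad1, which makes GABA, averaged 8304 ± 495 at PWK 7, 9465 ± 359.5 at PWK 14 and 9041 ± 543 at PWK 28 and did not pass. Of 16 neuropeptide genes 1 rose and 1 fell. Among 12 GABA-A receptor genes 2 rose and 5 fell, and 3 fell in either choroid plexus setting. Gabra4, a subunit of extrasynaptic receptors, averaged 3318 ± 67.1 at PWK 7, 2996 ± 67.7 at PWK 14 and 2715 ± 156 at PWK 28 (log2 -0.29 for PWK 28 against PWK 7, SE 0.043, adjusted p = 7.66e-04), and Gabra5, enriched in hippocampus, averaged 6214 ± 329 at PWK 7, 5648 ± 460.4 at PWK 14 and 4743 ± 316 at PWK 28 (log2 -0.39 for PWK 28 against PWK 7, SE 0.062, adjusted p = 0.0013). Of 21 glutamate receptor genes 4 fell (2 with the covariate), of 7 genes of the perineuronal net and lectican matrix 3 fell, of 4 neurofilament genes 1 rose and of 21 beta protocadherins 3 rose.

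Synaptic genes fell at the second step, where GC-rich transcripts fell as a whole. The share of all genes called lower was 1.96% at the first step, 5.6% at the second and 8.61% over the whole interval. Of 13 postsynaptic scaffold genes 1 rose and 1 fell at the first step, 7 fell at the second and 6 fell over the whole interval. The list had a median transcript GC content of 56.2%, against 49.7% over all genes. Nrgn, neurogranin, the calmodulin-binding protein of dendritic spines, was at 21212, 22958, 22727 and 22740.1 at PWK 7, 21011, 20130.4, 18798 and 24253 at PWK 14 and 14932, 16774, 15390.2 and 16002 at PWK 28, with all PWK 28 libraries below all others (log2 -0.51 for PWK 28 against PWK 7, SE 0.065, adjusted p = 3.22e-04). Dlgap3, a scaffold of the postsynaptic density, averaged 6316 ± 418 at PWK 7, 7011 ± 664 at PWK 14 and 5292 ± 299.8 at PWK 28 (log2 -0.40 for PWK 28 against PWK 14, SE 0.066, adjusted p = 0.003). Of 17 synaptic vesicle genes none passed at the first step (limma, with 5 at an unadjusted p under 0.05), 7 fell at the second and 4 over the whole interval, among them Syn1, which tethers vesicles (13868 ± 419 at PWK 7, 15032 ± 1140.3 at PWK 14 and 11620.5 ± 362 at PWK 28, log2 -0.37 at the second step), while Vamp2, the vesicle SNARE, passed at the second step and not over the whole interval (log2 -0.20 for PWK 28 against PWK 14, SE 0.038, adjusted p = 0.0066). After the correction for GC content and length 4 scaffold and 4 vesicle genes still fell at the second step, with the choroid plexus covariate 4 and 2, and without the 3 libraries of lowest level 3 and 3.

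Genes of cytosolic ribosomal proteins rose after PWK 14. Of 82, none passed at the first step (limma, with 6 at an unadjusted p under 0.05), 35 rose and 1 fell at the second and 35 rose and 4 fell over the whole interval, with a median log2 change of 0.118. Rpl27 was at 1062, 1127, 1157 and 1054 at PWK 7, 1210.5, 1162, 1103 and 1014 at PWK 14 and 1728, 1762, 1672 and 1656 at PWK 28 (log2 0.60 for PWK 28 against PWK 14, SE 0.056, adjusted p = 7.78e-05), and Rps23 at 1759, 2059, 1512 and 1642 at PWK 7, 1729, 1856, 1494 and 1602 at PWK 14 and 3135, 3001, 2849 and 2909 at PWK 28 (log2 0.84 for PWK 28 against PWK 14, SE 0.085, adjusted p = 1.90e-04). In both the younger ages overlapped and the PWK 28 libraries lay above them. Many members have processed copies elsewhere in the genome with which reads may be shared. Short transcripts rose as a whole at this step, with a median of 0.0548 in the shortest decile, and 34 members still rose over the whole interval after the correction for GC content and length. Without the 3 libraries of lowest choroid plexus level 16 rose at the second step and 26 over the whole interval. At PWK 28 against PWK 7, 4 of 20 genes of oxidative phosphorylation rose and 1 fell, and 3 of 18 genes of cholesterol synthesis fell. All genes tested gave 6.89% higher and 8.61% lower in this comparison, and 3.74% and 5.6% at the second step.

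Some astrocyte genes rose and fewer fell. Of 14 homeostatic astrocyte genes 3 rose and 1 fell at the first step, 1 rose and 1 fell at the second and 4 rose and 2 fell over the whole interval. Over all genes 2.39% were higher and 1.96% lower at the first step, 3.74% and 5.6% at the second and 6.89% and 8.61% over the whole interval. S100b and Gja1 also passed in at least 1 pair of ages, and the 2 members with values below both rose. Gjb6, which encodes the gap junction protein connexin 30, was at 1082, 1398, 1648 and 1205 at PWK 7, 1504, 1676, 1642 and 1311 at PWK 14 and 2769, 2562, 2878 and 2303 at PWK 28, with a rise after PWK 14 (log2 0.78 for PWK 28 against PWK 14, SE 0.12, adjusted p = 0.002). Glul, glutamine synthetase, averaged 44209.5 ± 1085 at PWK 7, 51519 ± 1842 at PWK 14 and 55381 ± 1558 at PWK 28 (log2 0.32 for PWK 28 against PWK 7, SE 0.039, adjusted p = 1.95e-04), in 3 separate ranges. Gfap, the filament protein of reactive astrocytes, averaged 9166 ± 463 at PWK 7, 8637 ± 774 at PWK 14 and 9340.5 ± 446 at PWK 28 and did not pass (adjusted p = 0.81). Of 15 reactive astrocyte genes 2 rose, including C4b.

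Antigen presentation genes rose over the whole interval, in which 6.89% of all genes were higher and 8.61% lower. At the second step 3.74% of all genes were higher. Of 16 major histocompatibility complex (MHC) genes none passed at the first step (limma, with 6 at an unadjusted p under 0.05), 1 rose at the second and 7 rose over the whole interval, with a median log2 change of 0.383. H2-Aa, an MHC class II chain of antigen-presenting cells, was at 24.5, 24.7, 28 and 23.9 at PWK 7, 41.7, 52.2, 67.2 and 23.1 at PWK 14 and 64.2, 31.6, 139.5 and 121 at PWK 28 (log2 1.57 for PWK 28 against PWK 7, SE 0.41, adjusted p = 0.02). Its companions H2-Ab1 and H2-Eb1 averaged 18.9 ± 7.05 at PWK 7, 30.3 ± 3 at PWK 14 and 52 ± 18.8 at PWK 28 and 26.5 ± 4.37 at PWK 7, 41.2 ± 10.7 at PWK 14 and 67.8 ± 14.7 at PWK 28, and the invariant chain Cd74 59.5 ± 15 at PWK 7, 85.2 ± 28.9 at PWK 14 and 159.8 ± 59.1 at PWK 28. In all 4 genes replicate 2 was the lowest of the PWK 28 libraries, and the call of H2-Aa was lost without PWK 28 replicate 3 or 4 (adjusted p = 0.05993 and 0.06363). B2m, the light chain of MHC class I, averaged 1580.2 ± 106 at PWK 7, 1613 ± 67.8 at PWK 14 and 1973 ± 115 at PWK 28 (log2 0.32 for PWK 28 against PWK 7, SE 0.057, adjusted p = 0.0024), a call lost with one spread over all 64 libraries (adjusted p = 0.1105). The class II genes are restricted to few cells in brain, and beside them the 5 blood markers summed to 3677 to 6090 at PWK 7, 4111 to 8503 at PWK 14 and 6713 to 10110 at PWK 28, and 3 of 5 were higher at PWK 28 than at PWK 7 (2 with the choroid plexus covariate, 5 without the 3 libraries). Of 8 meningeal fibroblast markers 3 were higher too, with sums of 5840 to 9953, 4558 to 11240 and 5658 to 14110. Their part in the result was not tested.

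Of 14 homeostatic microglia genes 1 rose at PWK 28 against PWK 7, and of 19 genes of activated and phagocytic microglia 4 rose and 1 fell, beside 6.89% higher and 8.61% lower over all genes. The numbers that rose were 2 and 3 with the choroid plexus covariate and 0 and 3 without the 3 libraries of lowest level (limma). Ctss, the lysosomal protease cathepsin S, was at 1411, 1388, 1386 and 1419 at PWK 7, 1531, 1479, 1397 and 1626 at PWK 14 and 1999, 1917, 1821 and 1902 at PWK 28, with PWK 28 above all others (log2 0.45 for PWK 28 against PWK 7, SE 0.049, adjusted p = 1.11e-04). Lyz2, lysozyme, averaged 189.5 ± 25.6 at PWK 7, 170.3 ± 20.1 at PWK 14 and 259 ± 23.8 at PWK 28 (log2 0.61 for PWK 28 against PWK 14, SE 0.12, adjusted p = 0.0087). This call of Lyz2 was lost with the choroid plexus covariate (adjusted p = 0.05872), without the 3 libraries of lowest level (0.1216) and with one spread over all 64 libraries (0.05027), and that of Ctss with one spread (0.05314). Of 16 complement genes 1 rose over the whole interval, C4b, and 3 rose at the second step. Of 20 interferon-stimulated genes 3 rose over the whole interval.

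Vascular genes fell after PWK 14. All genes tested gave 2.39% higher and 1.96% lower at the first step, and 3.74% and 5.6% at the second. The whole interval gave 6.89% and 8.61%. Of 19 genes of endothelial cells and pericytes 2 rose and 1 fell at the first step, 1 rose and 7 fell at the second and 1 rose and 8 fell over the whole interval, with median log2 changes of -0.0567, -0.204 and -0.198. Cldn5, the tight junction protein of the blood-brain barrier, was at 447, 442, 432 and 452 at PWK 7, 700.3, 754, 585 and 719.6 at PWK 14 and 326, 357, 397 and 299 at PWK 28. It rose at the first step (log2 0.63) and fell below its starting level at the second (log2 -1.0 for PWK 28 against PWK 14, SE 0.093, adjusted p = 7.78e-05), with no overlap between ages. Flt1, a receptor of vascular endothelial growth factor, was at 1642, 1562, 1724 and 1585 at PWK 7, 1826, 1744, 1811 and 1944 at PWK 14 and 1094, 990.0, 1219 and 1062 at PWK 28 (log2 -0.75 for PWK 28 against PWK 14, SE 0.061, adjusted p = 3.17e-05). Slco1a4, an organic anion transporter of the barrier, averaged 1774 ± 91 at PWK 7, 1593 ± 92.3 at PWK 14 and 1132 ± 75.9 at PWK 28 in 3 separate ranges (log2 -0.65 for PWK 28 against PWK 7, SE 0.058, adjusted p = 3.20e-05), and Rgs5, of pericytes, averaged 2610.5 ± 128 at PWK 7, 2258 ± 100.2 at PWK 14 and 1959.8 ± 71.8 at PWK 28 (log2 -0.41 for PWK 28 against PWK 7, SE 0.048, adjusted p = 1.62e-04). Pecam1, a general endothelial marker, averaged 460.4 ± 33.6 at PWK 7, 468 ± 17.6 at PWK 14 and 458 ± 104 at PWK 28 and did not pass (adjusted p = 0.89). Of 20 collagen and basement membrane genes 1 rose and 1 fell, or 4 and 1 without the 3 libraries of lowest choroid plexus level. Without the 3 libraries of lowest choroid plexus level 3 of the vascular genes fell at the second step and 6 over the whole interval.

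**Figure D4:**
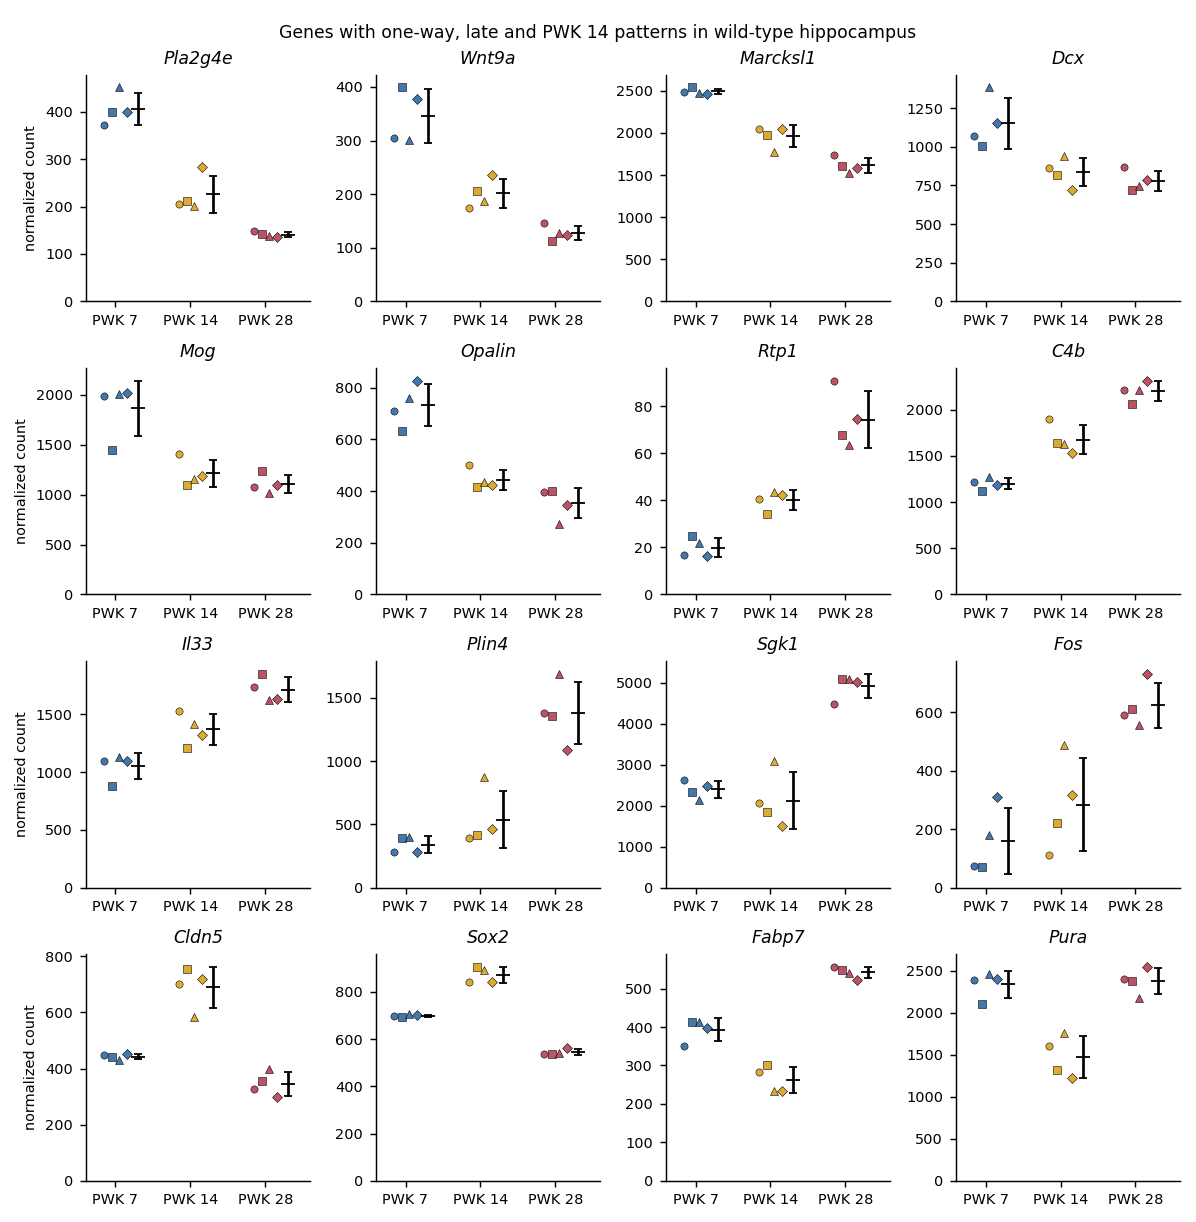
Normalized counts of 16 genes in each library at PWK 7, 14 and 28, with circles, squares, triangles and diamonds for replicates 1 to 4 and the mean with SD (n = 4) in black, on axes that start at 0. Pla2g4e, Wnt9a, Marcksl1 and Opalin fall in 3 separate ranges, Rtp1, C4b and Il33 rise in 3, Sgk1 and Fos are high at PWK 28, and Cldn5, Sox2, Fabp7 and Pura turn at PWK 14.

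The PWK 14 mean lay apart from the mean of the other ages for 696 genes (3.78% of those tested), 396 higher at PWK 14 (2.15%) and 300 lower (1.63%). Sox2, a transcription factor of neural stem cells and astrocytes, was at 699.5, 693, 705 and 701 at PWK 7, 844, 907, 893 and 842 at PWK 14 and 537, 537, 541 and 564 at PWK 28, very even within each age (log2 0.50 for PWK 14 against the mean of the other ages, SE 0.041, adjusted p = 6.16e-05). Cbfa2t3, a transcriptional co-repressor, averaged 776 ± 72.4 at PWK 7, 1371 ± 127 at PWK 14 and 1070.4 ± 37.3 at PWK 28 (log2 0.59). Cldn5, Flt1 and Cry1, given above, completed the leading group of genes highest at PWK 14. The genes lowest at PWK 14 were led by Fabp7, a fatty acid-binding protein of radial glia and astrocytes, at 351, 413, 413 and 397 at PWK 7, 282, 301, 234 and 235 at PWK 14 and 557, 548, 540.2 and 523 at PWK 28 (log2 -0.82 for PWK 14 against the mean of the other ages, SE 0.077, adjusted p = 2.11e-04). Herc2, a large ubiquitin ligase, averaged 11692 ± 522 at PWK 7, 8604 ± 612 at PWK 14 and 11034 ± 175 at PWK 28, Pura, a single-stranded DNA-binding protein of neurons, 2338 ± 159 at PWK 7, 1477 ± 249 at PWK 14 and 2376 ± 154 at PWK 28, and Mt2 and Pdlim2 are given above. The count was 202 with the choroid plexus covariate, 71 without the 3 libraries of lowest level, 301, 340 or 250 without PWK 14 replicate 1, 2 or 4, 417 without PWK 7 replicate 4 and 368 or 400 without PWK 28 replicate 1 or 4. The share of genes highest at PWK 14 was 56.9% with the deposited scaling, 46.53% with equal totals, 42.7% after the correction for GC content and length, 42.08% with the covariate and 49.3% without the 3 libraries.

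The change from PWK 7 to PWK 28 differed between hippocampus and frontal cortex for 637 genes (3.46% of 18419 tested in one fit of 24 WT libraries), 175 with the more positive change in hippocampus (0.95%) and 462 with the more positive change in cortex (2.51%). For 454 of the 637 the mean changes had opposite signs, and for 423 the change was larger in cortex. Ptgs2 was at 966 ± 68.7 at PWK 7, 693 ± 108 at PWK 14 and 859 ± 92.4 at PWK 28 in hippocampus and 328 ± 35.2 at PWK 7, 459 ± 42.5 at PWK 14 and 1017 ± 155 at PWK 28 in cortex, where it rose (log2 -1.797, SE 0.16, adjusted p = 4.13e-07 for hippocampus minus cortex). Egr3 rose in both, but from 2776 to 3816 in hippocampus and from 3196 to 10381 in cortex (log2 -1.24, SE 0.11, adjusted p = 4.13e-07). Nptx2, which did not pass between the ends in hippocampus (adjusted p = 0.73), was at 934 ± 74.8 at PWK 7, 1051 ± 66.3 at PWK 14 and 2098 ± 188 at PWK 28 in cortex (log2 -1.22, SE 0.12, adjusted p = 1.61e-06). In all, 11 of the 19 immediate early and activity genes had the more positive change in cortex, where 18 of 19 rose. Of the 18402 genes tested in hippocampus, 2073 rose and 2150 fell in cortex over the same interval. With one spread over all 64 libraries the difference between regions did not pass for Ptgs2 and Nptx2 (limma, adjusted p = 0.1916 and 0.1716). The number of genes that differed between regions was 646 with the choroid plexus covariate and 755 without the 3 libraries.

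Sgsm1, a Rab-associated signaling protein, rose by 1.105 on the log2 scale in cortex (2768 ± 122 at PWK 7, 3950.5 ± 182 at PWK 14 and 5959 ± 411 at PWK 28) and by 0.24 in hippocampus (2260.2 ± 157 at PWK 7, 2754 ± 219 at PWK 14 and 2674 ± 169 at PWK 28). Nrp1, the semaphorin co-receptor neuropilin 1, fell in hippocampus (2641 ± 229.5 at PWK 7, 2504 ± 139 at PWK 14 and 2202 ± 107 at PWK 28) and rose in cortex (574 ± 17.3 at PWK 7, 748 ± 20.1 at PWK 14 and 823 ± 20.4 at PWK 28) (log2 -0.78, SE 0.076, adjusted p = 1.61e-06). In the other direction, Htr1a, the serotonin 1A receptor, was at 892 ± 68.5 at PWK 7, 1204 ± 35.1 at PWK 14 and 1095 ± 76.2 at PWK 28 in hippocampus and 722 ± 57.4 at PWK 7, 609 ± 17.1 at PWK 14 and 418 ± 33.6 at PWK 28 in cortex, where it fell (log2 1.08, SE 0.095, adjusted p = 4.13e-07). Nr2f1, a patterning transcription factor, fell in both, by 0.18 and 0.76 on the log2 scale, and Kcnc4, a potassium channel, Rflnb and Tef, a clock output factor, rose in hippocampus (log2 0.25, 0.37 and 0.10) and fell in cortex (log2 -0.45, -0.49 and -0.20). With one spread over all 64 libraries the difference between regions did not pass for Tef (adjusted p = 0.2182). For the ER chaperone Hspa5 the difference between regions did not pass (log2 0.13, SE 0.14, adjusted p = 0.70). In cortex 17 of the 22 genes of its list rose, beside 2073 of 18402 genes, and 1, Hspa1b, had the more positive change there. Rtp1, which rose in hippocampus, averaged 21.4 ± 3.97 at PWK 7, 23.3 ± 8.85 at PWK 14 and 24.2 ± 6.2 at PWK 28 in cortex (log2 1.71, SE 0.34, adjusted p = 0.0052).

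**Figure D5:**
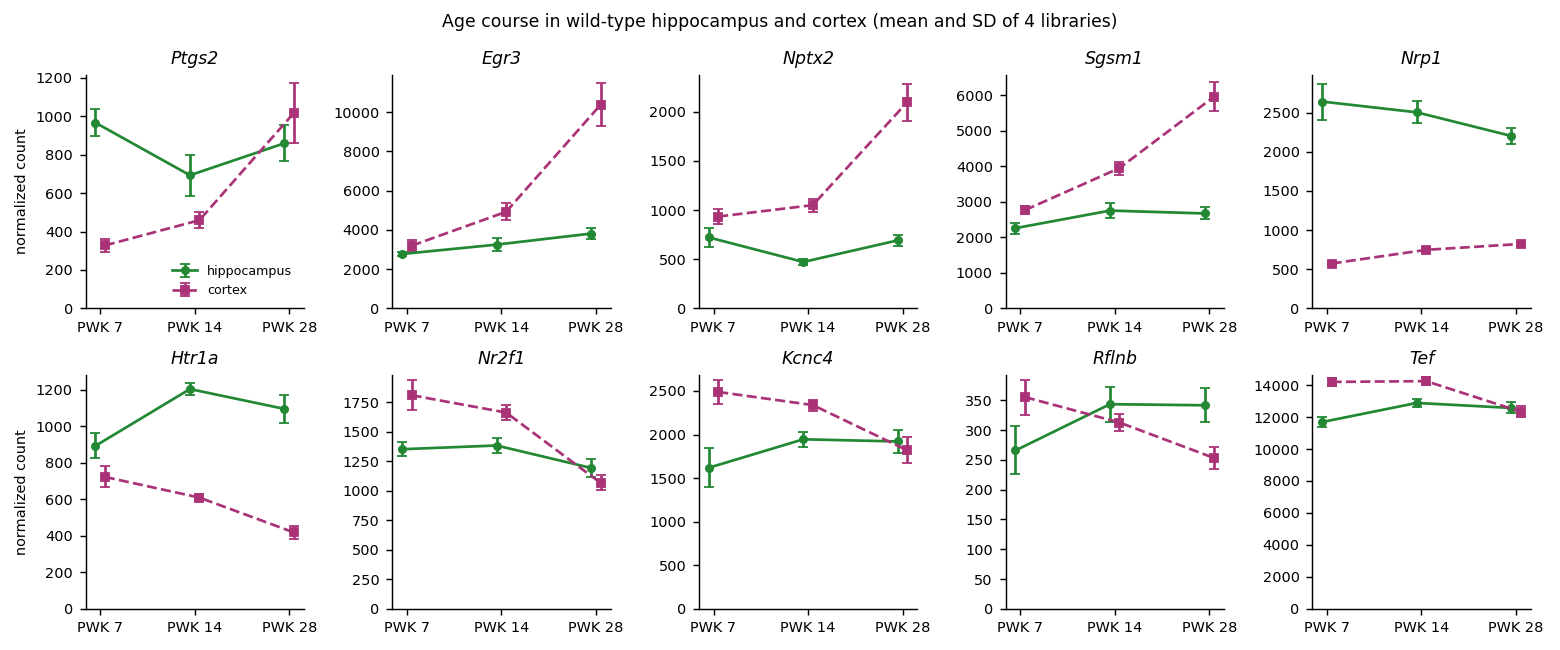
Mean normalized counts with SD (n = 4 libraries) at PWK 7, 14 and 28 in hippocampus (green, solid) and frontal cortex (purple, dashed) for the 10 genes chosen by smallest p for a regional difference in the change from PWK 7 to PWK 28. Ptgs2, Egr3, Nptx2, Sgsm1 and Nrp1 rise in cortex, and Htr1a, Nr2f1, Kcnc4, Rflnb and Tef fall there.

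Markers of neighbouring regions gave few calls. Of 7 thalamic markers 1 rose and 1 fell at PWK 28 against PWK 7, and of 8 neocortical, 7 striatal and 8 ependymal markers none passed in that comparison (limma, with 2, 0 and 1 at an unadjusted p under 0.05). Their summed levels were 3254 to 3902 at PWK 7 and 3575 to 4272 at PWK 28 for thalamus, 5057 to 8865 and 6517 to 7337 for neocortex, 1909 to 3171 and 2081 to 2865 for striatum and 783.1 to 1379 and 1049 to 1476 for ependyma.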

How the data were processed

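RNA of dissected hippocampus was sequenced. The labels name a stranded mRNA kit and the study's methods a total RNA kit, so whether poly(A) RNA was selected is not settled here. The authors deposited one table of signal values, estimated gene counts from Salmon on GRCm38 that were divided by DESeq2 size factors over all 64 libraries (versions 0.11.2 and 1.19.11, with R 3.6.0, in the submitters' processing notes). The values are not whole reads. The share of low values within 0.1 read of a whole number was 30.5% to 52.0% at PWK 7, 38.5% to 54.9% at PWK 14 and 27.3% to 32.5% at PWK 28. A fixed step would give 20% by chance, but the best step of a grid was taken, which raises that level. Reads were therefore not recovered and depth per library is unknown. The reason for the lower share at PWK 28 was not tested. The table holds 18432 genes.

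Values were analysed as log2(value + 1), a scale that understates the change of low genes, with limma 3.58.1 in R 4.3.3 (empirical Bayes with trend), for genes with a mean of at least 1. The 12 libraries were fitted together, with all pairs of ages and PWK 14 against the mean of the other ages as contrasts, and 24 libraries for the comparison with cortex. P-values were adjusted by the Benjamini-Hochberg method. The labels do not say that each library is a separate mouse, and p-values measure the spread between these libraries only. The sources also disagree on tool versions. The test was checked on simulated data. Samples were grouped by the labels. No column of the table was without a sample, and the authors' own comparisons were not used.

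Named genes were those with the largest change among called protein-coding genes without overlap, with a mean of at least 50 in the higher group, up to 8 per direction. For the contrast of PWK 14 and for the regions, up to 5 per direction with the smallest p were taken, and from each list up to 4 called members and its first 2, of which 1 gene is not reported here. Ddx3y, Nr3c1, Nr3c2, Bdnf and members of lists beyond that number were named after their values were seen. The 32 gene lists, the 8 marker lists and the members were chosen with earlier results of these data known. Gene positions are GENCODE M21, and promoters and sequences are RefSeq, both on GRCm38. Alternatives were another pseudocount, filters, scalings, spread estimates, weights, a replicate block and leaving out each library. A correction for GC content and length, the choroid plexus covariate and leaving out 3 libraries were chosen after seeing the data.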

Additional observations from a re-analysis of the deposited data

Results flagged for a closer look

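Of 363 groups of 4 libraries, 1 age and 1 named gene each, 32 had 1 library far from the other 3 by Dixon's criterion for a gap over the range, where chance flags about 1 in 20. The genes share libraries and are not independent. Normalized counts stood above the rest of their group in Bdnf PWK 14 replicate 4 (1228 beside 885 to 931), Cnp PWK 14 replicate 1 (8145 beside 6806 to 6934), Cyfip2 PWK 14 replicate 4 (35756 beside 31064 to 31256), Dlgap3 PWK 7 replicate 2 (6942 beside 6079.9 to 6138) and Egr3 PWK 14 replicate 4 (3760.3 beside 3008 to 3127). High values of the same kind were Eomes PWK 14 replicate 1 (62.2 beside 17 to 24.6), Gm14434 PWK 7 replicate 4 (133 beside 3 values of 0), Gm14440 PWK 14 replicate 4 (241 beside 0 to 38.6), Gm21985 PWK 7 replicate 1 (94.2 beside 32.7 to 41.8) and Gm4070 PWK 7 replicate 1 (118 beside 54.5 to 63.9). The high side also held Hspa1b PWK 7 replicate 2 (529.7 beside 351 to 373), Hspa1b PWK 28 replicate 2 (648 beside 453 to 482), Hspa5 PWK 7 replicate 1 (5401 beside 4590.4 to 4659), Pla2g4e PWK 14 replicate 4 (284 beside 202 to 213) and Plin4 PWK 14 replicate 3 (874 beside 392 to 465). To these were added Sgsm1 PWK 7 replicate 3 (2495 beside 2177 to 2191), Sox2 PWK 28 replicate 4 (564 beside 537 to 541), Ttr PWK 14 replicate 3 (94520.0 beside 877 to 16386) and mt-Co2 PWK 28 replicate 3 (134422 beside 102725 to 106658). Normalized counts stood below the rest of their group in Bdnf PWK 28 replicate 3 (1074 beside 1316 to 1341), H2-Ab1 PWK 28 replicate 2 (24.1 beside 57.5 to 63.3), Hspa5 PWK 14 replicate 4 (6374 beside 8045 to 8356), Il33 PWK 7 replicate 2 (883 beside 1099 to 1134) and Lyz2 PWK 7 replicate 2 (151 beside 201 to 203). Low values of the same kind were Micall2 PWK 28 replicate 2 (18.1 beside 34 to 36.6), Mog PWK 7 replicate 2 (1448 beside 1990.1 to 2019), Nrgn PWK 7 replicate 1 (21212 beside 22727 to 22958), Nutf2 PWK 14 replicate 1 (18.3 beside 76.3 to 87.6) and Ptgs2 PWK 7 replicate 3 (863 beside 993 to 1008). The low side also held Scd3 PWK 7 replicate 1 (37.9 beside 40.9 to 41.3), Scd3 PWK 14 replicate 4 (67.2 beside 87.5 to 91.5) and Sgk1 PWK 28 replicate 1 (4485 beside 5013 to 5106).

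For 24 of the named genes the change from PWK 7 to PWK 28 differed between hippocampus and cortex (limma, hippocampus minus cortex on the log2 scale). The more positive change was in cortex for Arc -1.89 (1.08 and 2.97), Bdnf -1.29 (-0.19 and 1.096), Draxin -1.54 (-1.19 and 0.36), Egr2 -1.53 (1.94 and 3.47) and Egr3 -1.24 (0.46 and 1.70), with the change in each region in brackets, hippocampus first. It was also in cortex for Fkbp5 -0.68 (0.34 and 1.02), Fosl2 -0.55 (0.55 and 1.099), Hspa1b -0.88 (0.35 and 1.23), Nptx2 -1.22 (-0.06 and 1.17) and Nr3c2 -0.58 (-0.52 and 0.06). Cortex led as well for Nrp1 -0.78 (-0.26 and 0.52), Ptgs2 -1.80 (-0.17 and 1.62), Sgsm1 -0.86 (0.24 and 1.105) and Wnt9a -0.56 (-1.42 and -0.86). The more positive change was in hippocampus for B2m 0.26 (0.32 and 0.06), Htr1a 1.08 (0.30 and -0.79), Kcnc4 0.71 (0.25 and -0.45), Nr2f1 0.58 (-0.18 and -0.76) and Rflnb 0.86 (0.37 and -0.49). The same held for Rnf207 0.87 (1.05 and 0.18), Rtp1 1.71 (1.86 and 0.15), Scel 1.04 (0.99 and -0.06) and Tef 0.31 (0.10 and -0.20). Gm14440 had a fitted difference of -8.35, which depends on the pseudocount and is no fold, because the gene is listed at 0 in all PWK 28 libraries of hippocampus.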

How the results depend on the processing

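PWK 28 against PWK 7 (1923 to 2991 calls without single libraries) and the one-way genes (1516 to 2314) stayed within 1.5 times their main counts in each alternative run. PWK 14 against PWK 7 fell from 800 calls to 405 with one spread over all 64 libraries, to 367 when only the 2 ages were fitted, to 374 without the 3 libraries of lowest choroid plexus level and to 387 to 804 without single libraries. PWK 28 against PWK 14 fell from 1718 to 565 with the choroid plexus covariate, to 343 without the 3 libraries and to 912 to 2029 without single libraries. Genes that peaked or dipped at PWK 14 fell from 696 to 459 after the GC content and length correction, to 202 with the covariate, to 71 without the 3 libraries and to 250 to 914 without single libraries. The difference between regions gave 209 calls with one spread over all 64 libraries, 1056 with sample quality weights and 426 to 703 without single libraries, against 637. The single libraries that moved a count by over 1.5 times were PWK 7 replicate 4 (387 at the first step, 417 for the PWK 14 contrast), PWK 14 replicate 1 (474 and 301) and replicate 2 (430 and 340), and, for the second step and the PWK 14 contrast, PWK 14 replicate 4 (986 and 250), PWK 28 replicate 1 (958 and 368) and PWK 28 replicate 4 (912 and 400). The cause was not tested beyond the smaller number of libraries where some were left out.

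Of 121 results for single named genes none reversed. One spread over all 64 libraries lost 24 of them, the choroid plexus covariate 10, leaving out the 3 libraries 19, and fitting only the 2 ages 2 of 115, while pseudocount 5, no filter, a filter at mean 30 and median-ratio scaling left all on the same side. Beside genes whose lost calls are given with their values above, one spread lost Gm4070, Rnf207, Sgk2, Bdnf, Hspa1b, Igfbpl1 and Gm20458 (adjusted p from 0.05189 to 0.4192), and the covariate lost Mycbp, Hspa1b, Gm21985, Nutf2, Micall2, Foxq1, Vamp2, Gm14434 and Eomes (from 0.05083 to 0.1186). Leaving out the 3 libraries also lost Gm14434 (0.0754) and Hspa1b (0.2675). Prox1 passed without the 3 libraries (adjusted p = 0.005556), Cyfip2 without PWK 14 replicate 4, and Gad1 with sample quality weights (adjusted p = 0.04977). Equal replicate numbers did not pair the libraries of different ages: their deviations correlated at a mean of -0.044 (range -0.397 to 0.339, 5 of 12 pairs over 0.1), against 0.013 for different numbers. Between hippocampus and cortex of one age, equal numbers correlated at a mean of -0.002 at PWK 7, 0.073 at PWK 14 and -0.036 at PWK 28. For different numbers these means were 0.001, -0.024 and 0.012. A fit with the replicate number as a block gave 607, 1563 and 2608 calls in the 3 pairs of ages, 1967 one-way genes and 487 for the PWK 14 contrast, lost Gm14434 (adjusted p = 0.06654) and gained Hspa1a (0.03131). The comparison of regions, with age and replicate number together as the block, gave 495. Depth behind low values is unknown, so calls among genes below about 50 rest on the spread alone.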

Other observations

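Among the 13 protein-coding genes of the mitochondrial genome, mt-Co2 stood apart in its course over the ages. It averaged 86920 ± 27760 at PWK 7, 44860 ± 10780 at PWK 14 and 112400 ± 14780 at PWK 28 (SD, n = 4), and both steps passed (limma, adjusted p = 0.03413 and 0.003284). Of the other 12, none passed at either step, with 1 and 2 at an unadjusted p under 0.05, and their log2 changes ran from -0.344 to 0.307 at the first step and from -0.434 to 0.247 at the second. Over the whole interval mt-Nd1 fell and mt-Nd6, which is encoded on the opposite strand, rose (log2 -0.25 and 0.322, adjusted p = 0.02891 and 0.01978). The mitochondrial ribosomal RNAs mt-Rnr1 and mt-Rnr2 rose by 0.374 and 0.334 on the log2 scale from PWK 7 to PWK 28 (adjusted p = 0.0002089 and 0.0005366).

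Further motifs were searched in the same promoter windows on both strands. The E-box CACGTG, bound by clock activators, was in 7.15% of windows and in 5 of 15 circadian genes with a window (Tef, Per1, Cry1, Ciart and Bhlhe41). The interferon-stimulated response element, searched as TTTCNNTTTC, was in 3.44% of windows and in 9 of 14 interferon-stimulated genes. The cAMP response element TGACGTCA was in 1.79% of windows and in 2 of 14 immediate early and activity genes (Dusp1 and Btg2), and the serum response element was in 1.63% and in 1 of 14 (Egr2). Among all genes tested that held the E-box in a window, 103 were higher and 125 lower at PWK 28 than at PWK 7, of 1409. For the interferon-stimulated response element these were 48 and 32 of 482, for the cAMP response element 41 and 32 of 421 and for the serum response element 21 and 25 of 208. Over all genes tested 6.89% were higher and 8.61% lower, and the E-box counts lay near these shares.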
